A study of Mus musculus with 30 samples.

Results

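The change of the liver response to CP-865520 between 5 days and 24 h of dosing was followed on 16 of the 30 expression arrays of the series. CP-865520 is a piperidine compound that activates the nuclear receptor PPAR-alpha, 1 of 3 such agonists in the series, and is known here by its code name alone. The arrays were chosen by their labels and fall into 4 groups of 4 arrays each: CP-865520 for 5 days, water vehicle for 5 days, CP-865520 for 24 h and water vehicle for 24 h. All groups were male C57Bl/6 mice of an age not given in the sources used here, with no transgene named, and the compound was dosed at 1 mg/kg/day. Each array was taken as the liver of a separate mouse, since the series' design gives these numbers as mice. The other 14 arrays carry the other agonists, CP-868388 (8 arrays) and CP-775146 (6 arrays), at the same dose and times.

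PPAR-alpha is a ligand-activated transcription factor that binds DNA as a pair with the retinoid X receptor. In liver its activation is known for raising genes of fatty acid uptake, of mitochondrial and peroxisomal fatty acid oxidation and of ketone body formation. In mice and rats, continued activation is also known to enlarge the liver and to multiply peroxisomes.

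The table holds 12488 probe sets, of which 66 are controls, and 7963 of the 12422 others rose above the lowest value of the table, 50, on at least 2 of the 30 arrays and were tested. That lowest value is called the floor. On the 16 arrays the mean intensity lay between 314.1 and 317.4, and between 5805 and 6741 probe sets lay above the floor, with the lowest counts under CP-865520 at 5 days (5805 to 6309) against 6480 to 6741 under vehicle at 5 days. Differences are given on the log2(intensity + 50) scale, which understates changes of dim probe sets. No probe set was paired with a gene, so transcripts are given by probe set ID, gene groups were not formed, and the liver label was not set against marker genes. Whole liver was measured, so a lower value from fewer cells of a type and one from less RNA per cell cannot be told apart. Replicate 4 of CP-865520 at 24 h stood apart from its group on the first principal component of all 30 arrays (-0.74, against -12.8 to -9.07), and so did replicates 2 and 3 of the 5-day vehicle group (-18.9 and -13.1) from replicates 1 and 4 (-28.8 and -25.8). The count of called interactions and some of the other main counts are given with and without these arrays. The labels name no batch, so a batch tied to a time cannot be told apart from it.

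The size of the compound response differed between the times for 1378 of the 7963 probe sets, 17.3% of those tested. The tested quantity is an interaction: the compound minus vehicle difference at 5 days, minus the same difference at 24 h. It was positive for 584 probe sets (7.33%) and negative for 794 (9.97%) at a limma adjusted p under 0.05, and it reached 2-fold for 61 positive ones (0.766%) and 97 negative ones (1.22%). Called interactions ran from -2.63 to 3.07 with a median absolute size of 0.63, so most were changes of less than 2-fold. Among the 4487 that never touched the floor on the 16 arrays, 999 were called (22.3%), 461 positive and 538 negative. In 153 of the calls at least 1 of the 4 groups held nothing above the floor. For 6701 of the 7963 probe sets (84.2%) the 95% interval of the interaction lay within 2-fold in either direction. Probe sets mostly at the floor count among these, and of the 4487 that never touched it the interval did so for 3504. The count was 902 without replicate 1 of CP-865520 at 5 days, 1415 without replicate 4 of CP-865520 at 24 h and 1313 without replicates 2 and 3 of the 5-day vehicle group.

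The balance between positive and negative interactions depended on how the arrays were scaled. As deposited, 42.4% of the calls were positive. Quantile normalization gave 656 positive and 513 negative calls (56.1% positive), centring each array on its median gave 1313 and 359 (78.5%), and centring on the brighter probe sets, those never at the floor, gave 820 and 446 (64.8%). Median centring moved the median interaction over all tested probe sets to 0.10, against -0.07 as deposited. Of the 1378 calls, 832 were called in the same direction under all 4 scalings. These were 499 of the 584 positive calls and 333 of the 794 negative ones, and 8 of the negative calls changed direction under at least 1 scaling.

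Compound and vehicle arrays both moved between the times. Under CP-865520, 2528 probe sets (31.7%) differed between 5 days and 24 h, 855 higher at 5 days (10.7%) and 1673 lower (21%). Under vehicle, 1807 (22.7%) differed, 892 higher (11.2%) and 915 lower (11.5%). Large changes were mostly on the compound side by count: under CP-865520, 34 probe sets were at least 2-fold higher (0.427%) and 249 at least 2-fold lower (3.13%) at 5 days, whereas under vehicle 6 were higher (0.0753%) and 7 lower (0.0879%). The split of the CP-865520 calls was 1282 higher and 1273 lower after quantile normalization, 2685 and 1136 after median centring, and 2178 and 1204 after centring on the brighter probe sets. Median centring moved the median change under CP-865520 to 0.13, against -0.03 as deposited. The vehicle count was 1179 without replicate 2 of the 5-day vehicle group, and 580 (374 higher, 206 lower) without its replicates 2 and 3. A group with fewer arrays also gives a less precise change, which can lower the number of calls.

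For each called interaction, the group that moved was read from the absolute size of its own change between the times. The compound arrays moved more in 869 of the 1378 calls (63.1%) and the vehicle arrays in 509, beside 54.3% compound over all tested probe sets. The compound share was 71.1% after quantile normalization, 75.4% after median centring and 73.3% after centring on the brighter probe sets. The vehicle arrays moved more in 338 calls under the quantile scaling and in 338 under centring on the brighter probe sets. The share over all tested probe sets is not given for these scalings. Their shares among calls therefore cannot be read as particular to the calls. Among interactions of at least 2-fold the compound arrays moved more in 142 of 158 (89.9%), against 727 of 1220 (59.6%) among the smaller ones. Among positive calls the compound share was 443 of 584 (75.9%), and among negative calls it was 426 of 794 (53.7%). The median absolute change in called probe sets was 0.43 under CP-865520 and 0.25 under vehicle, against 0.18 and 0.17 over all tested. The vehicle arrays moved more in 377 of 1313 calls without replicates 2 and 3 of the 5-day vehicle group, and in 420 of 1415 without replicate 4 of CP-865520 at 24 h.

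Read by the test of each change, the compound change alone was called in 742 of the 1378 interactions, the vehicle change alone in 419, both in 128 and neither in 89. Over all 7963 tested probe sets these counts were 1885, 1164, 643 and 4271. The 2 changes ran in opposite directions in 79 of the 128, and in the same 79 of the 643. The interaction is the difference of the 2 changes, so opposite changes favour its call. In the 419 the vehicle level was higher at 5 days in 313 and lower in 106, and in 367 of them the 95% interval of the compound change lay within 0.5 of 0. In the 1164 over all tested it was higher in 780 and lower in 384, and 985 had such an interval. The class of 419 depended on the scaling. It held 269 calls after quantile normalization (164 higher at 5 days, 105 lower), 286 after median centring (112 and 174) and 259 after centring on the brighter probe sets (142 and 117). Of the 419, 169 were called in the same direction of the interaction under all 4 scalings, against 611 of the 869 in which the compound arrays moved more. The class was also smaller with fewer 5-day vehicle arrays. The vehicle change alone was called in 291 of 1149 interactions without replicate 2 of that group and in 388 of 1458 without replicate 3. It was called alone in 233 of 1313 without both. Fewer arrays also make a vehicle change harder to call. No other pair of that group was left out as a comparison, so the part of these arrays' own values was not tested. Without both arrays the compound change alone was called in 931, both changes in 35 and neither in 114, and 1020 of the 1313 were among the 1378.

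**Figure D1:**
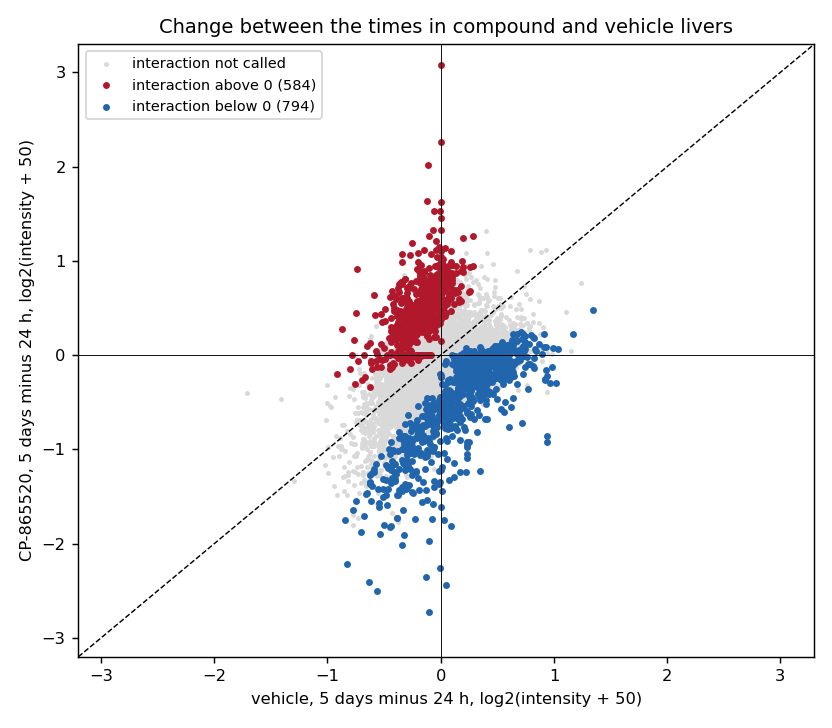
Each point is 1 of 7963 probe sets, with its change under vehicle (5 days minus 24 h) on the x axis and its change under CP-865520 on the y axis, both on the log2(intensity + 50) scale; red and blue points are the 584 positive and 794 negative called interactions and the dashed line marks equal change. Red points spread mainly upward along the y axis, while blue points extend both downward, to -2.73 under CP-865520, and to the right, where vehicle was higher at 5 days.

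The calls were sorted by whether the response itself passed the test at each time. A response that passed at both times in 1 direction grew or shrank, a response that passed at 5 days alone emerged, a response that passed at 24 h alone faded, and a response that passed at both times in opposite directions reversed. Emerged responses made up 829 of the 1378 calls (60.2%), grown ones 235 (17.1%), faded ones 169 (12.3%), reversed ones 44 (3.19%) and shrunken ones 16 (1.16%). In 85 (6.17%) the response passed at neither time. Behind these lie 3355 probe sets called for compound against vehicle at 5 days (42.1%; 1218 higher, 15.3%, and 2137 lower, 26.8%) and 1613 at 24 h (20.3%; 711 higher, 8.93%, and 902 lower, 11.3%), which share no arrays. The 5-day split was 1524 higher and 1526 lower after quantile normalization, 2620 and 1240 after median centring, and 1753 and 1441 after centring on the brighter probe sets. Without replicate 1 of CP-865520 at 5 days, 529 responses emerged, and 578 interactions had the larger move in the compound arrays and 324 in the vehicle arrays. Without replicate 2 or replicate 4 of CP-865520 at 24 h, 26 and 29 reversed. Without replicates 2 and 3 of the 5-day vehicle group, 835 emerged, 263 grew, 131 faded, 32 reversed and 6 shrank.

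Most responses present at 24 h did not change size by the test. Of the 711 probe sets higher under CP-865520 at 24 h, 438 had no called interaction, 143 grew, 90 faded, 37 reversed and 3 shrank. Of the 902 lower at 24 h, 711 had no called interaction, 92 grew, 79 faded, 13 shrank and 7 reversed. Responses of at least 2-fold at 24 h numbered 79 upward (0.992% of those tested) and 101 downward (1.27%). Of these 27 and 18 grew, and 5 in each direction shrank, faded or reversed. An uncalled interaction does not show that the response was of equal size at both times.

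**Figure D2:**
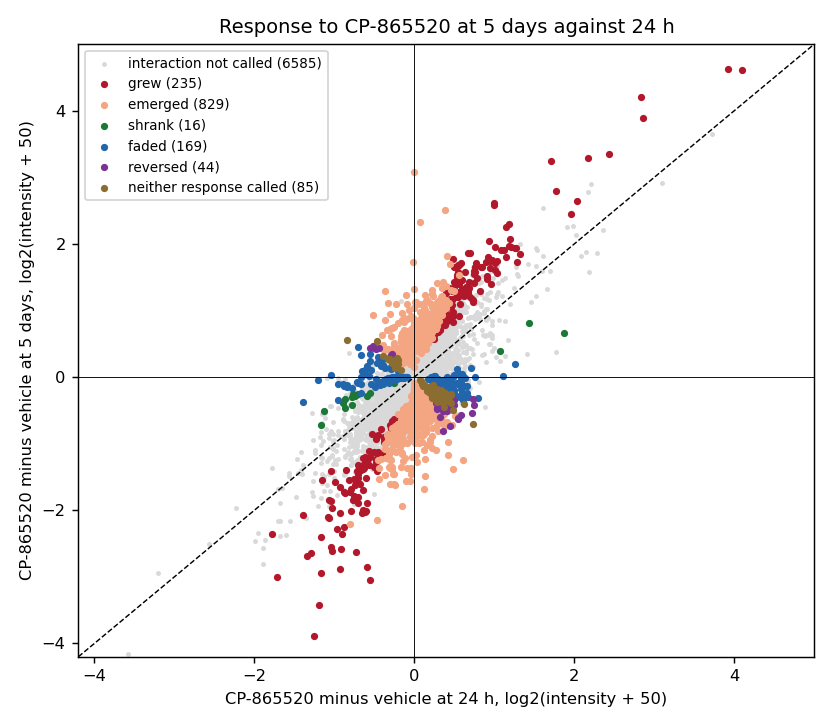
Each point is 1 of 7963 probe sets, with the CP-865520 minus vehicle difference at 24 h on the x axis and at 5 days on the y axis, both on the log2(intensity + 50) scale; colours give the response classes with their counts and the dashed line marks equal responses. Grown responses lie beyond the dashed line in the direction of their sign, emerged ones stretch along the y axis at small 24 h values, and faded ones along the x axis.

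Growth was a change in the compound arrays for most of its members. In the 143 responses that grew upward the median difference from vehicle was 1.33 at 5 days and 0.56 at 24 h. CP-865520 arrays were higher at 5 days than at 24 h by a median of 0.56, and vehicle arrays moved by -0.13. In the 92 that grew downward the medians were -1.55 at 5 days and -0.67 at 24 h, CP-865520 arrays moved by -1.17 and vehicle arrays by -0.20. The compound arrays moved more in 120 of the 143 and in 88 of the 92. Set against the 24 h vehicle mean, the median probe set of the upward class lay at 1.34, 1.11, 1.16 and 1.25 on the arrays of CP-865520 at 5 days, at -0.24, -0.11, -0.03 and -0.16 under vehicle at 5 days, and at 0.59, 0.57, 0.55 and 0.58 under CP-865520 at 24 h. The median probe set of the downward class lay at -1.98, -1.59, -1.80 and -2.02 under CP-865520 at 5 days, at -0.05, -0.31, -0.38 and -0.09 under vehicle at 5 days, and at -0.74, -0.64, -0.50 and -0.86 under CP-865520 at 24 h. In both directions no array of CP-865520 at 5 days reached the range of any other group, a difference for which the class was chosen. All 4 scalings kept 105 of the 143 and 57 of the 92 in the same class.

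The growing responses include the probe set 99083_AT, the most negative interaction of all those called. It read 304, 434, 414 and 171 under CP-865520 at 5 days, against 5663, 4801, 5108 and 5828 under vehicle at 5 days. At 24 h it read 1984, 2674, 2420 and 2440 under CP-865520, against 6196, 6161, 5719 and 4944 under vehicle. The compound arrays lay below the vehicle arrays at both times with no overlap, and the 5-day compound arrays lay below all others. Mean intensity was 16.2-fold lower than vehicle at 5 days and 2.42-fold lower at 24 h, and the interaction was -2.63 ± 0.26 (SE, limma adjusted p = 4.06e-07). The vehicle change between the times was -0.10 (adjusted p = 0.742). The probe set 97867_AT behaved alike, at 377, 376, 390 and 366 under CP-865520 at 5 days, against 3091, 3767, 3424 and 3607 under vehicle. After 24 h the values were 2122, 2445, 2330 and 2179 under CP-865520, against 3530, 3271, 3588 and 3014 under vehicle. It was 9.20-fold lower at 5 days and 1.48-fold lower at 24 h, with an interaction of -2.49 ± 0.17 (SE, limma adjusted p = 7.07e-10). These and the next pair, under the emerged responses, are the 2 largest fitted interactions in each direction among the 908 called probe sets with a group mean of at least 200.

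Growth in the upward direction is shown by 97352_F_AT, singled out after its values were seen. For each class of growth, emergence, fading and reversal not yet shown, the largest interaction with a group mean of at least 200 was taken in this way. The probe set read 633, 536, 577 and 519 under CP-865520 at 5 days and 186, 155, 117 and 146 under CP-865520 at 24 h, and it was at the floor of 50 on all vehicle arrays of both times. Its mean was at least 11.3-fold higher than vehicle at 5 days and at least 3.02-fold higher at 24 h, and the groups did not overlap. The fitted interaction was 1.62 ± 0.18 (SE, limma adjusted p = 2.78e-06).

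**Figure D3:**
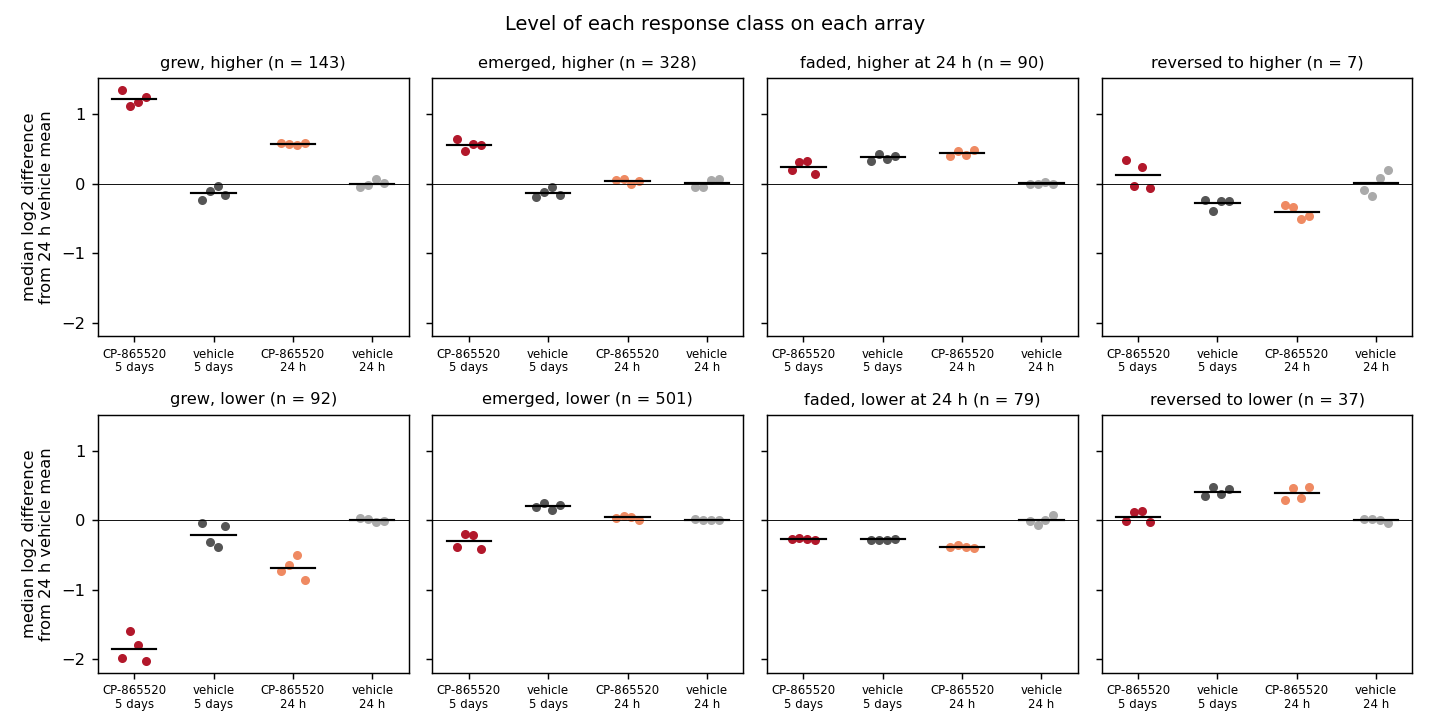
Points are single arrays (4 per group), and each gives the median over a response class of the log2(intensity + 50) difference from the 24 h vehicle mean of each probe set. Lines are group means. The top row holds responses higher than vehicle and the bottom row lower ones, read at 24 h for the faded classes and at 5 days for the others. All classes were picked by tests on these arrays. The grown and emerged classes set CP-865520 at 5 days apart. In the faded and reversed classes the 5-day vehicle arrays lie away from 0 together with the 24 h compound arrays.

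Upward emergence was mostly a move of the compound arrays, and downward emergence a move of either group. The 5-day arrays of each group enter the 5-day response, the interaction and that group's change alike. Picking by the first 2 therefore favours a move of either group, also in the grown classes. In the 328 probe sets that emerged upward the median response was 0.69 at 5 days and 0.04 at 24 h, and CP-865520 arrays moved by 0.53 and vehicle arrays by -0.14 between the times. The compound arrays moved more in 287 of them (87.5%), and the compound change alone was called in 262 and the vehicle change alone in 31. In the 501 that emerged downward the median response was -0.55 at 5 days and 0.06 at 24 h, with CP-865520 arrays moving by -0.35 and vehicle arrays by 0.21. Here the compound arrays moved more in 271 (54.1%). The compound change alone was called in 230 and the vehicle change alone in 199, and vehicle was higher at 5 days than at 24 h in 365 of the 501. Over both directions the vehicle change alone was called in 230 of 829 emerged responses, and in 140 of 835 without replicates 2 and 3 of the 5-day vehicle group. The median probe set of the downward class lay at -0.38, -0.19, -0.22 and -0.41 on the arrays of CP-865520 at 5 days and at 0.19, 0.25, 0.15 and 0.22 under vehicle at 5 days, on either side of the 24 h vehicle mean. Across the 4 scalings 283 of the 328 kept their class, against 179 of the 501. The downward class held 303 probe sets after quantile normalization, 193 after median centring and 258 after centring on the brighter probe sets, and the upward class 404, 875 and 483.

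Upward emergence is shown by 94214_AT and 99994_AT. The probe set 94214_AT read 1155, 454, 575 and 1270 under CP-865520 at 5 days and 50, the floor, on all 12 arrays of the other groups. Its mean was at least 17.3-fold higher than vehicle at 5 days, and no response was measured above the floor at 24 h. The fitted interaction was 3.07 ± 0.26 (SE, limma adjusted p = 4.06e-08), a size that depended on the pseudocount and ranged from 2.58 to 3.95 over the alternatives. The probe set 99994_AT read 964, 157, 380 and 654 under CP-865520 at 5 days and 50, 50, 60 and 60 under CP-865520 at 24 h, with the vehicle arrays of both times at the floor. It was at least 10.8-fold higher at 5 days, with a fitted interaction of 2.26 ± 0.39 (SE, limma adjusted p = 0.00046), and its 5-day compound arrays differed among themselves from 157 to 964. In both, the compound arrays at 5 days lay above every other array.

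Downward emergence is shown by 96859_AT, singled out after its values were seen. It read 465, 561, 417 and 381 under CP-865520 at 5 days, against 1956, 1581, 692 and 1144 under vehicle at 5 days. The 24 h arrays read 2592, 2227, 2271 and 1016 under CP-865520, against 801, 1581, 1833 and 1424 under vehicle, and these groups overlapped. The response was -1.38 at 5 days (limma adjusted p = 0.00322) and 0.49 at 24 h (0.397), and the interaction was -1.87 ± 0.51 (SE, adjusted p = 0.0155). The compound level changed by -1.97 between the times and the vehicle level by -0.10. Without replicate 4 of CP-865520 at 24 h, which read lowest of its group, the interaction was -2.16.

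In most faded responses the vehicle arrays moved more between the times than the compound arrays. The 24 h vehicle arrays enter the 24 h response, the interaction and the vehicle change alike. Picking by the first 2 therefore favours a vehicle change toward the 24 h compound level, also in the reversed and shrunken classes. The 24 h compound arrays enter the first 2 and the compound change in the same way. Picking thus equally favours a compound change toward the 24 h vehicle level. In the 90 probe sets that were higher under CP-865520 at 24 h and then faded, the median response was -0.12 at 5 days and 0.43 at 24 h. CP-865520 arrays moved by -0.17 between the times and vehicle arrays by 0.39. The vehicle arrays moved more in 57 of the 90, and the vehicle change alone was called in 53 and the compound change alone in 28. In the 79 that were lower at 24 h and then faded, the median response was 0.00 at 5 days and -0.39 at 24 h, and the vehicle arrays moved by -0.27 and the compound arrays by 0.00. The vehicle arrays moved more in 58 of the 79. Against the 24 h vehicle mean, the median probe set of the 79 averaged -0.38 under CP-865520 at 24 h. At 5 days it averaged -0.27 under CP-865520 and -0.275 under vehicle. Over both directions the vehicle change alone was called in 104 of 169, and in 61 of 131 without replicates 2 and 3 of the 5-day vehicle group. The 79 were dim transcripts, with a median intensity of 68.2 and with a group wholly at the floor in 37. The size of the fading is bounded by the floor there. In the 90 the median intensity was 133.9, with a group wholly at the floor in 9. All 4 scalings kept 21 of the 90 and 36 of the 79 in the same class.

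The probe set 95716_AT, singled out after its values were seen, had the largest such interaction of the upward responses that faded, and in it the compound arrays moved. It read 511, 664, 700 and 430 under CP-865520 at 5 days, against 842, 666, 494 and 942 under vehicle at 5 days, and these groups overlapped. At 24 h it read 1302, 2098, 1557 and 1477 under CP-865520, above all vehicle arrays at 1107, 899, 647 and 989. The interaction was -1.11 ± 0.30 (SE, limma adjusted p = 0.0152), with a change between the times of -1.41 under CP-865520 and -0.30 under vehicle.

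The vehicle arrays moved in 93728_AT, singled out in the same way for the downward responses that faded. It read 400, 289, 313 and 374 under CP-865520 at 5 days, against 424, 327, 273 and 410 under vehicle at 5 days, with full overlap. After 24 h the values were 342, 321, 195 and 252 under CP-865520, below all vehicle arrays at 784, 753, 484 and 786. The interaction was 1.15 ± 0.30 (SE, limma adjusted p = 0.0119). The vehicle level changed by -0.87 between the times (adjusted p = 0.0051), and the compound level by 0.28 (0.354). Without replicates 2 and 3 of the 5-day vehicle group the interaction was 0.945 and no longer passed (adjusted p = 0.0588).

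Reversal was rare, and 37 of its 44 members went to lower than vehicle at 5 days after being higher at 24 h. In these 37 the median response was -0.41 at 5 days and 0.39 at 24 h, the CP-865520 arrays moved by -0.28 and the vehicle arrays by 0.40. Both changes were called in 14, the vehicle change alone in 16 and the compound change alone in 7. Without replicates 2 and 3 of the 5-day vehicle group the reversals to lower numbered 25, and the vehicle change alone was called in 9 of the 32 reversals of both directions. Under all 4 scalings 33 of the 37 had a called interaction in the same direction, but 11 stayed in this class. The other 7 were higher than vehicle at 5 days after being lower at 24 h, with medians of 0.43 and -0.48. In those the CP-865520 arrays moved by 0.53 and the vehicle arrays by -0.24, and all 7 kept their class under the 4 scalings. The median centring and the other centring gave 46 and 16 upward reversals and 15 and 15 downward ones, so the excess of downward reversals was not kept under these scalings.

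The probe set 161561_R_AT had the largest such interaction of the reversals to lower and was singled out after its values were seen. It read 674, 717, 837 and 759 under CP-865520 at 5 days, all below the vehicle arrays at 1116, 1078, 867 and 1424. The 24 h arrays read 650, 1870, 687 and 861 under CP-865520, all above the vehicle arrays at 614, 559, 496 and 511. The response was -0.54 at 5 days (limma adjusted p = 0.0389) and 0.72 at 24 h (0.0147), and the interaction was -1.26 ± 0.29 (SE, adjusted p = 0.00611). Vehicle was higher at 5 days by 0.96 and CP-865520 changed by -0.29. Without replicate 2 of CP-865520 at 24 h, the array at 1870, the interaction was -0.93 and still passed.

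The opposite reversal is shown by 103047_AT, likewise singled out. It read 381, 208, 289 and 277 under CP-865520 at 5 days, against 149, 187, 166 and 285 under vehicle at 5 days, where the ranges overlapped. At 24 h it read 226, 179, 169 and 180 under CP-865520, below all vehicle arrays at 270, 234, 327 and 343. The response was 0.46 at 5 days (limma adjusted p = 0.0322) and -0.52 at 24 h (0.0328), and the interaction was 0.98 ± 0.24 (SE, adjusted p = 0.00848). The compound moved by 0.49 and the vehicle by -0.50 between the times.

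**Figure D4:**
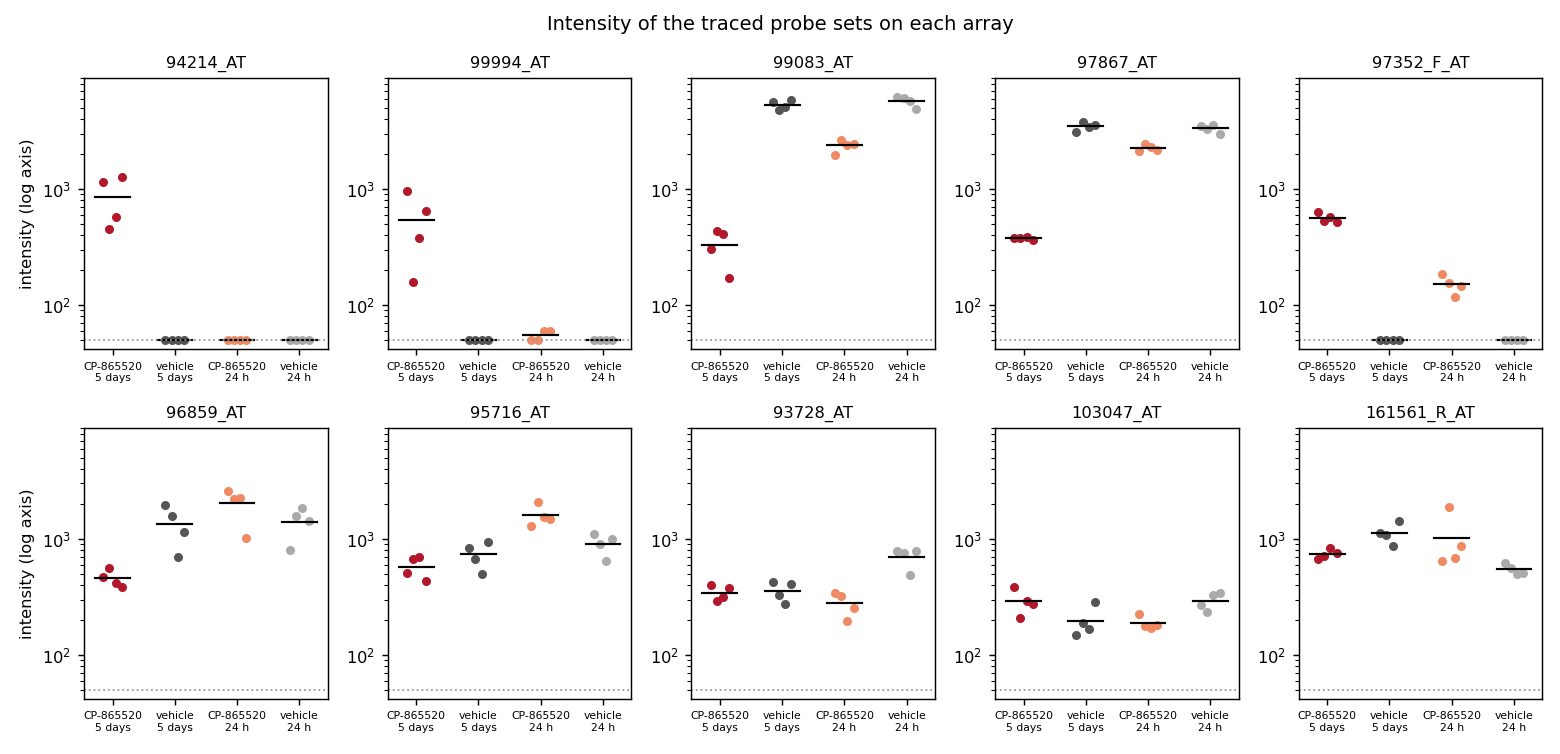
Intensity on a log axis of the 10 traced probe sets on each of the 16 arrays, with lines at the group means and a dotted line at the floor of 50. In 94214_AT and 99994_AT the 5-day compound arrays stand above the floor where the others lie at or near it, and in 161561_R_AT and 93728_AT the vehicle arrays differ between the times.

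Shrinkage was found in 16 probe sets, 13 lower and 3 higher than vehicle at both times. In the 13 the median response was -0.30 at 5 days and -0.78 at 24 h, the vehicle arrays moved by -0.48 and the compound arrays by -0.04. In 9 of the 13 a group lay wholly at the floor. In the 85 whose response passed at neither time, 71 had a negative interaction, and vehicle arrays moved more in 53 of those 71, by a median of 0.39.

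Control probe sets that carry a transcript's name showed both patterns. Gapdh, a glycolytic enzyme often used as a reference transcript, read 2662, 3792, 3124 and 2463 at its 3' control probe set under CP-865520 at 5 days, against 6438, 5369, 4738 and 6197 under vehicle at 5 days. After 24 h the values were 7151, 6167, 7754 and 6061 under CP-865520, against 6934, 6874, 6887 and 6955 under vehicle. The 5-day compound arrays lay below all others, and the 24 h groups overlapped. The interaction was -0.88 ± 0.25 at the 3' set (SE, limma adjusted p = 0.0165), -1.11 at the middle set (0.00732) and -0.93 at the 5' set (0.0465). CP-865520 changed by -1.17 between the times and vehicle by -0.29.

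In 18S ribosomal RNA, the RNA of the small ribosomal subunit, the vehicle arrays moved more than those of CP-865520. Its 3' control probe set read 243, 1023, 511 and 825 under CP-865520 at 5 days, against 1676, 1828, 1919 and 1660 under vehicle at 5 days. The 24 h arrays read 320, 300, 402 and 554 under CP-865520, against 433, 452, 357 and 261 under vehicle. The 5-day vehicle arrays lay above all other 12 arrays. Vehicle was higher at 5 days by 2.12 (limma adjusted p = 7.32e-05), CP-865520 by 0.53 (0.226), and the interaction was -1.59 ± 0.45 (SE, adjusted p = 0.0186), with -1.65 at the middle set and -1.70 at the 5' set. At 5 days the set read 764, 700, 411 and 1073 under CP-868388 and 1230 and 1680 under CP-775146, and at 24 h no array of these compounds was above 354. The 18S signal was thus higher at 5 days under the other agonists too. Its mean was 737 against 238 at 24 h under CP-868388, and 1455 against 233.5 under CP-775146. Its part in the 419 interactions in which the vehicle change alone was called was not tested. Without replicates 2 and 3 of the 5-day vehicle group its interaction was -1.51 (adjusted p = 0.054).

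Beta-actin, a cytoskeletal protein, read 2754, 4553, 3853 and 3475 at its 3' control probe set under CP-865520 at 5 days, against 7324, 6141, 5518 and 6592 under vehicle. At 24 h it read 7279, 6436, 6004 and 4098 under CP-865520, against 8048, 7347, 6606 and 7652 under vehicle. Its groups did not overlap at 5 days and did at 24 h, but the interaction was -0.47 ± 0.26 and did not pass (SE, limma adjusted p = 0.218). Pyruvate carboxylase, which makes oxaloacetate for gluconeogenesis, had an interaction of -0.36 ± 0.16 at its 3' set that did not pass (adjusted p = 0.128), with 571 to 700 under CP-865520 and 755 to 904 under vehicle at 5 days, and 796 to 1299 and 890 to 1152 at 24 h.

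**Figure D5:**
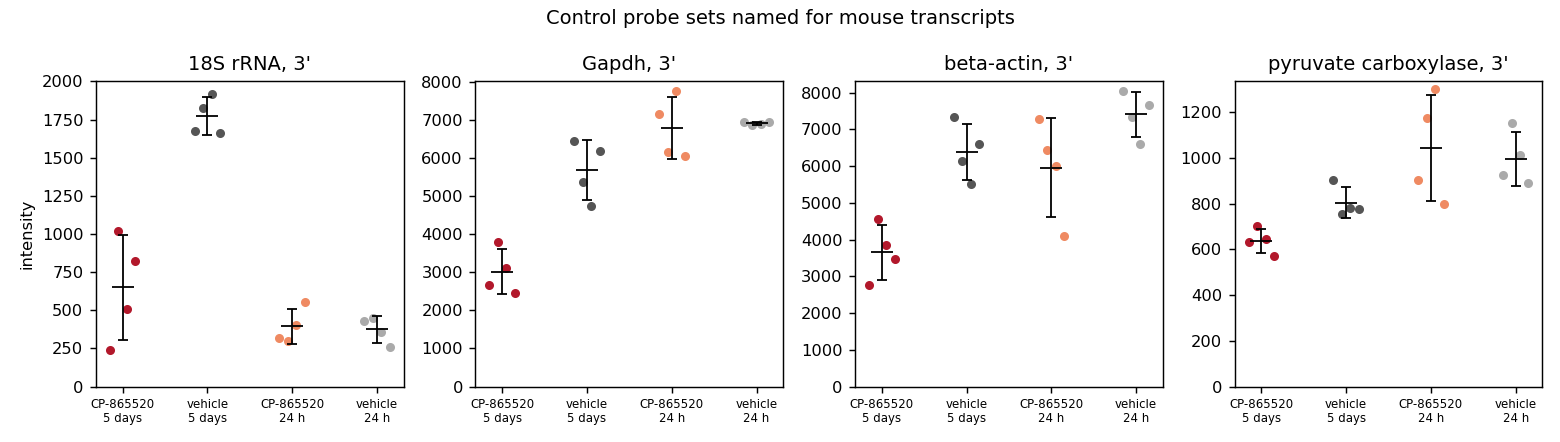
Intensity of 4 control probe sets named for mouse transcripts, with each point 1 array, horizontal lines at the mean and bars of 1 SD (n = 4). The 5-day vehicle arrays stand apart in 18S rRNA, and the 5-day CP-865520 arrays lie lowest in Gapdh.

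The signal from the 5' ends of control transcripts relative to their 3' ends, a measure of RNA integrity and labelling, had the lowest mean of these 4 groups under CP-865520 at 5 days for all 3 controls with both sets. The log2 5'/3' ratio of beta-actin was -1.29 ± 0.25 under CP-865520 and -0.80 ± 0.18 under vehicle at 5 days, and -0.88 ± 0.40 and -0.61 ± 0.12 at 24 h (SD, n = 4 each). For pyruvate carboxylase it was -1.91 ± 0.25 and -1.40 ± 0.16 at 5 days, and -1.59 ± 0.77 and -1.39 ± 0.16 at 24 h. The Gapdh ratio was -0.10 ± 0.14 and 0.03 ± 0.04 at 5 days, and -0.05 ± 0.27 and 0.02 ± 0.11 at 24 h, with replicate 4 of CP-865520 at 24 h at -0.45. With these ratios as a covariate 1421 interactions were called, and without the 3 arrays of lowest Gapdh ratio 1526.

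The change between the times was then set beside that under the other agonists, in 2 tests that need no vehicle array. It differed between CP-865520 and CP-868388 for 1498 probe sets (18.8%), 461 of them with the more positive change under CP-865520 (5.79%) and 1037 with the more negative one (13%). Quantile normalization split these calls into 662 and 552, median centring into 1927 and 484, and centring on the brighter probe sets into 1094 and 525. The RNA integrity covariate, a mean of the scaled 5'/3' ratios, ran from -2.40 to -0.33 under CP-868388 at 24 h. At 5 days it ran from 0.00 to 0.55 under that compound. The covariate and the time are thus partly tied there and cannot be fully told apart. The count of calls was 66 with this covariate and 558 without the 3 arrays of low Gapdh ratio, of which 2 are of CP-868388 at 24 h. The count was 806 without replicate 3 of CP-868388 at 24 h alone. It was 961 and 976 without replicates 1 and 4 of CP-865520 at 5 days, 975 without replicate 3 of CP-865520 at 24 h, and 956 without replicate 4 of CP-868388 at 5 days. Between CP-865520 and CP-775146, with 2 arrays at 5 days, limma called 0 probe sets (0%), with 527 at an unadjusted p under 0.05 (6.62%). Of the 4487 that never touched the floor on the 16 arrays, 4134 had a 95% interval of this difference within 2-fold. The 95% interval of that difference lay within 2-fold for 7433 probe sets (93.3%), and the count was 56 without replicate 1 of CP-775146 at 5 days, where the spread of the 1 remaining array was taken from the other groups.

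The classes were picked by contrasts of CP-865520 and vehicle in a fit whose filter and spread came from all 30 arrays, and the changes under the other agonists are given as a description. With only the 16 arrays fitted, 1241 interactions were called, of which 37 reversed and 6 shrank. In the upward grown class the median change between the times was 0.56 under CP-865520, 0.11 under CP-868388 and 0.47 under CP-775146, against -0.13 under vehicle. In the downward grown class it was -1.17, -0.34 and -1.19 in the same order, against -0.20 under vehicle. In the upward emerged class it was 0.53, 0.01 and 0.35, against -0.14 under vehicle, and in the downward emerged class -0.35, 0.05 and -0.14, against 0.21. In responses that were higher at 24 h and faded it was -0.17, 0.18 and 0.13, against 0.39 under vehicle, and in those that reversed to lower -0.28, 0.21 and 0.12, against 0.40. In both of these classes the medians of CP-868388 and CP-775146 had the sign of vehicle and not that of CP-865520. Single members were mixed. The change under CP-775146 had the sign of that under CP-865520 in 57 of the 90 faded and 18 of the 37 reversed. For CP-868388 these counts were 38 and 8. Over all 7963 tested they were 5783 for CP-775146 and 4322 for CP-868388. In responses that were lower at 24 h and faded the median change was 0.00, -0.00 and -0.00, against -0.27, and in the 7 that reversed to higher 0.53, -0.05 and 0.29, against -0.24. In the 419 interactions in which the vehicle change alone was called it was -0.03, 0.13 and 0.05, against 0.38. Over all tested probe sets these medians were -0.03, 0.01 and -0.00, against 0.00 under vehicle.

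Among the traced probe sets, 94214_AT read 459, 366, 479 and 348 under CP-868388 and 879 and 676 under CP-775146 at 5 days, and was at the floor under both at 24 h. Its change between the times was larger under CP-865520 than under CP-868388 by 0.87 (limma adjusted p = 0.0245). The probe set 99083_AT read 513, 577, 445 and 654 under CP-868388 and 436 and 382 under CP-775146 at 5 days, with 1899, 1628, 1175 and 1972 under CP-868388 and 1827, 2589, 2597 and 2308 under CP-775146 at 24 h. Its change was more negative under CP-865520 than under CP-868388 by -1.22 (adjusted p = 0.004). The faded probe set 95716_AT read 641, 781, 503 and 980 under CP-868388 at 24 h, against 548, 553, 457 and 755 at 5 days. The 24 h arrays of CP-868388 lay below every 24 h array of CP-865520, and the changes differed by -1.12 (adjusted p = 0.0138). The arrays at 641 and 503 are the 2 of low Gapdh ratio. With the RNA integrity covariate, partly tied to the time under CP-868388, the difference passed in none of the 3. It was 0.74 in 94214_AT (limma adjusted p = 0.261), -1.06 in 99083_AT (0.103) and -0.70 in 95716_AT (0.328). Without the 3 arrays of low Gapdh ratio it was -1.08 in 99083_AT and passed (0.0304), and it was 0.87 in 94214_AT (0.0913) and -0.86 in 95716_AT (0.109) and did not. That of 94214_AT also did not pass without replicate 4 of CP-868388 at 5 days (0.0556) or without replicate 1 (0.065) or 4 (0.0588) of CP-865520 at 5 days. For the other 7 traced probe sets the difference from CP-868388 did not pass, and for none of the 10 did that from CP-775146.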

How the data were processed

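Liver RNA was labelled with biotin and measured on expression arrays. The deposited values are linear intensities per probe set and array. MAS5 made them, per the submitters' processing notes; the sources used here do not give its version, its scaling target or the step behind the floor at 50, where 50.29% of the values lay. No further normalization was applied, and intensities were taken as log2(value + 50). Probe sets above 50 on at least 2 arrays were kept, and 66 control probe sets were left out, or added where named. Group means of all 30 arrays were fitted with limma 3.58.1 in R 4.3.3 (lmFit, eBayes with a trend), two-sided, with Benjamini-Hochberg adjustment over 7963 probe sets and calls under 0.05. Adjusted p-values of the control probe sets come from the same model with 20 controls named for mouse transcripts added (7983 probe sets). With 4 arrays a group, the median SE of the interaction was 0.169. On simulated data, 99 of 100 interactions of log2 size 2 and 77 of 100 of size 1 were recovered, with 8 false calls. These changes were set in 200 probe sets of higher mean signal, on the 5-day CP-865520 arrays alone, with normal noise and no floor. Recovery in dim probe sets was not simulated. Plots used matplotlib 3.10.9 in Python 3.11.15.

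No table used here pairs a probe set with a gene. The planned gene lists, cell type markers and gene names were therefore not used, and 4 probe sets were named by the rule for unnamed features (the 2 largest interactions in each direction with a group mean of at least 200). A further 6, the largest of a response class with the same minimum, were picked once their values had been seen. The comparisons, classes and lists were chosen with earlier results of these data known. Alternatives were pseudocounts, filters, scalings, fewer arrays in the fit, a replicate block, an RNA integrity covariate, and leaving out arrays.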

Additional observations from a re-analysis of the deposited data

Results flagged for a closer look

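The response to CP-865520 differed between 5 days and 24 h for 1378 probe sets by the test of the difference. Among the probe sets named in the text, the interaction was 3.07 for 94214_AT, 2.26 for 99994_AT, -2.63 for 99083_AT, -2.49 for 97867_AT and 1.62 for 97352_F_AT. It was -1.87 for 96859_AT, -1.11 for 95716_AT, 1.15 for 93728_AT, 0.983 for 103047_AT and -1.26 for 161561_R_AT. The 3' control probe sets of Gapdh and 18S rRNA also differed between the times, at -0.881 and -1.59. The change between the times differed between CP-865520 and CP-868388 for 1498 probe sets, and for 558 without the arrays of low Gapdh ratio. The count was 66 with the RNA integrity covariate, which is partly tied to the time under CP-868388.

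Of 80 groups of 4 arrays looked at for an array far from the others, 5 had one, where chance marks about 1 group in 20. Replicate 4 of CP-865520 at 24 h read 1016 for 96859_AT, and its Gapdh log2 5'/3' ratio was -0.446. Replicate 3 of the 24 h vehicle group read 484 for 93728_AT. Replicate 4 of the 24 h vehicle group read 58 for the 3' control probe set of transferrin receptor, whose other arrays there were at the floor of 50. Replicate 1 of the 5-day vehicle group read 50 for the MURFAS control probe set.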

How the results depend on the processing

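No pairing of the arrays by replicate number was seen, which does not show that there was none. Over 24 same-numbered pairs the deviations correlated between -0.222 and 0.146, with 2 pairs over 0.1. With a replicate block 1291 interactions were called. Leaving out 1 array at a time gave 902 to 1476 interactions, 2922 to 3432 calls against vehicle at 5 days and 1296 to 1653 at 24 h, 2120 to 2638 changes between the times under CP-865520 and 1179 to 2016 under vehicle. It gave 167 to 250 grown, 529 to 938 emerged, 8 to 18 shrunken, 129 to 174 faded and 26 to 46 reversed responses, 578 to 997 interactions with the larger move in the compound arrays and 324 to 561 in the vehicle arrays. Differences from CP-868388 numbered 806 to 1787 and from CP-775146 0 to 56. Shrunken responses numbered 10 with a pseudocount of 1 or no filter, and 6 with only the 16 arrays fitted or without replicates 2 and 3 of the 5-day vehicle group. Without a filter 29 reversed. The vehicle arrays moved more in 338 interactions after quantile normalization and in 338 after centring on the brighter probe sets. Median centring gave 3821 changes under CP-865520 and 2411 differences from CP-868388, which numbered 66 with the RNA integrity covariate and 558 without the arrays of low Gapdh ratio. Those from CP-775146 numbered 2 without a filter, 5 after quantile normalization, 1 without the arrays of low Gapdh ratio and 3 without replicates 2 and 3 of the 5-day vehicle group. Without those 2 arrays, a choice made after seeing the data, 580 vehicle changes and 1313 interactions were called, and 93728_AT and 18S rRNA no longer passed (0.945 and -1.51). The interaction of the pyruvate carboxylase 3' control passed without replicate 4 of CP-865520 at 24 h (-0.477, limma adjusted p = 0.0338), and that of the transferrin receptor 3' control, near the floor, ran from -0.00313 to 0.159 with 1 array left out, turning negative without replicate 3 of CP-865520 at 5 days. The cause of these shifts was not tested. The 10 traced probe sets kept their direction under all 29 alternatives, and 9 of them their call. Transcripts at the floor have bounds only.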

Other observations

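Some control probe sets with a name carried little or no signal. The 3' control probe set of transferrin receptor, which takes iron into cells, read 50, 71, 90 and 55 under CP-865520 at 5 days, against 50, 60, 50 and 54 under vehicle. At 24 h it read 67, 62, 50 and 50 under CP-865520, against 50, 50, 50 and 58 under vehicle. Its interaction was 0.09 (limma adjusted p = 0.623), and its 5' and middle sets were at the floor on all 16 arrays.

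The MURFAS control probe set, named so in its ID and not assigned to a gene here, read 220, 133, 163 and 223 under CP-865520 at 5 days, against 50, 81, 82 and 84 under vehicle. At 24 h it read 113, 116, 100 and 102 under CP-865520, against 61, 52, 67 and 70 under vehicle. The compound arrays lay above the vehicle arrays at both times, and the interaction of 0.42 did not pass (limma adjusted p = 0.119). It passed with quantile normalization (0.615, adjusted p = 0.0328), with median centring (0.588, 0.0384) and without replicate 2 of CP-865520 at 5 days (0.532, 0.0401).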
